A study of Homo sapiens with 51 samples.

Results

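The 8 genes described here are HSPA5, HSP90B1, CALR, PDIA4, SDF2L1, DNAJB9, XBP1 and HERPUD1. They were picked by symbol from the 24033 genes of a human RNA sequencing table, as genes of protein folding and stress in the endoplasmic reticulum (ER), the compartment where secreted and membrane proteins are folded. Each matched 1 row, and all 8 were read in all 51 libraries and passed the filter on low reads in every fit. The set goes by the name of ER chaperones, but XBP1 encodes a transcription factor and HERPUD1 a membrane protein of ER-associated degradation, so the name covers the other 6 members only.

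The cells were HMLE-TWIST1, labelled as overexpressing the transcription factor TWIST1, and HMLE, labelled as wild type. HMLE is an established line of immortalised human mammary epithelial cells, and TWIST1 drives the change from an epithelial to a mesenchymal state. Both lines received a DsiRNA, a short RNA duplex, against SUV39H1 and SUV39H2, the methyltransferases that place the repressive H3K9me3 mark, or a scramble duplex. Duplex cells were taken after 48 h (day 2), or after 48 h plus a further 48 h in fresh medium (day 4). HMLE-TWIST1 cells also received chaetocin, a fungal compound known as an inhibitor of SUV39H1, at 100, 150, 200 or 500 nM for 48 h (day 2), or at 80 nM for 15 h followed by a wash and 48 h without drug (called day 4 in the labels). DMSO cells of both lines were handled on the day 2 and the day 4 schedule, so their 2 schedules differ in exposure and wash as well as in time. All cells grew in MEGM mixed with DMEM/F12 that held serum. This gave 17 groups of 3 libraries each. Nothing in the labels says that the 3 libraries of a group came from separate cultures, so p-values measure the spread between these libraries, which may be technical. Nor do the labels say whether HMLE-TWIST1 is 1 clone.

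When unfolded proteins build up in the ER, HSPA5 (also called BiP) leaves the luminal sides of 3 sensors, which then signal to the nucleus. ATF6 is cut into a transcription factor, ERN1 (IRE1) splices the XBP1 message so that it encodes an active factor, and EIF2AK3 (PERK) slows translation and raises ATF4. ATF6 and spliced XBP1 act on chaperone promoters through short elements, of which the best known is the ER stress response element (ERSE), and a compact form is called ERSE-II. Gene-level reads do not separate the spliced from the unspliced XBP1 message.

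The promoters of the 8 genes were searched for these elements because ATF6 and spliced XBP1 act through them. Windows ran from each RefSeq start to 250 bases before it (GRCh38.p14, both strands searched, 35116 promoters in all), and all 8 genes had a window. XBP1 and PDIA4 had 2 starts each. The letters searched were CCAAT, 9 bases of any kind and CCACG for ERSE, ATTGG, 1 base of any kind and CCACG for ERSE-II, and TGACGTGG for the element called UPRE (an ERSE-II can lie inside an ERSE, and UPRE shares CCACG with both, but no matches overlapped in the members). ERSE occurred in 26 of all promoters (0.074%), ERSE-II in 18 (0.0513%) and UPRE in 215 (0.612%). Matches in 6 members are given in the direction of the gene, 5′ to 3′, with the motif in capitals and 20 bases on each side. HSP90B1 holds 2 ERSE matches, the one nearer the start being on the opposite strand. CALR and SDF2L1 hold theirs on the opposite strand.
HSPA5, ERSE, chr9:125241371-125241429, minus strand: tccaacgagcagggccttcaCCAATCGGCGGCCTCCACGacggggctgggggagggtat
HSP90B1, ERSE, chr12:103930196-103930254, plus strand: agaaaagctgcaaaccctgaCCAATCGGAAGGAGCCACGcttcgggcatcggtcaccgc
HSP90B1, ERSE, chr12:103930301-103930359, plus strand: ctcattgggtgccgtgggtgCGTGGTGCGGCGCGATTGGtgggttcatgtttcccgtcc
XBP1, ERSE, chr22:28800583-28800641, minus strand: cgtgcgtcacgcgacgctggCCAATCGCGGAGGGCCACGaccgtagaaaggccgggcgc
CALR, ERSE, chr19:12938364-12938422, plus strand: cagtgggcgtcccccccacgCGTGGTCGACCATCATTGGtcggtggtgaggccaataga
SDF2L1, ERSE-II, chr22:21642094-21642144, plus strand: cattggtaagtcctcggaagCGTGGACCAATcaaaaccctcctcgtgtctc
HERPUD1, ERSE-II, chr16:56932005-56932055, plus strand: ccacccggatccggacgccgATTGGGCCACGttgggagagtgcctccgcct
The match nearest to a start lay 52 to 34 bases before it, in XBP1, and the farthest 225 to 207 bases before it, in CALR. DNAJB9 and PDIA4 held none of the searched letters in their windows, and no member held UPRE. A match is a stretch of letters and was not tested as a site, and no match says only that these letters are not in this window.

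Libraries held 7897060 to 15662385 reads in listed genes. Members had between 23 reads, for SDF2L1 in its lowest library, and 38807 reads, for CALR in its highest. TWIST1 was higher in HMLE-TWIST1 cells in all 4 line comparisons (log2 fold changes of 5.47 to 6.68), and SUV39H1 and SUV39H2 were lower in all 4 knockdown comparisons (log2 fold changes of -1.40 to -0.39). In HMLE-TWIST1 cells TWIST1 itself was lower in knockdown than in scramble cells at days 2 and 4 (-0.49 and -0.48, limma, adjusted p = 0.00165 and 0.000241). With chaetocin it was lower at 150, 200 and 500 nM (-0.73, -0.88 and -1.26, adjusted p of 0.000329 to 0.0229). At 100 nM and after the washout it did not pass (-0.34 and 0.35). Its part in the results below was not tested. The cells are labelled mammary gland epithelial, but the 5 epithelial markers summed to only 2.04 to 6.89 CPM (read counts scaled to library size) in HMLE-TWIST1 libraries, against 4751 to 11510 CPM in HMLE libraries. The 5 mesenchymal markers summed to 5565 to 31760 CPM in HMLE-TWIST1 libraries and 755.9 to 3283 CPM in HMLE libraries. In such bulk libraries, fewer cells of a type and less RNA per cell cannot be told apart. Libraries of the 4 chaetocin doses resembled the others of their group less (mean Pearson r of 0.956 to 0.982 over genes) than libraries of the other groups (0.989 to 0.996), and same-numbered replicates of different doses deviated together.

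Levels are given as RPKM, reads scaled to library size and to the summed exon length of the gene, so that genes can be set beside each other. CALR, a calcium-binding lectin chaperone for glycoproteins, had the highest level, from 233 to 975 RPKM over all libraries with a median of 467 RPKM. HSP90B1 (GRP94), the ER's HSP90, spanned 85.4 to 342 RPKM (median 178 RPKM), and HSPA5, the ER's HSP70, 58.5 to 167 RPKM (median 109 RPKM). PDIA4, a disulfide isomerase, spanned 41.1 to 112 RPKM (median 57.9 RPKM). These 4 abundant folding proteins thus stood above the other members in every library. XBP1 spanned 11.9 to 33.8 RPKM, DNAJB9 (ERdj4), an HSP40-type partner of HSPA5, 3.68 to 13.6 RPKM, HERPUD1 3.37 to 12.7 RPKM, and SDF2L1, a cofactor of ER chaperones, 1.99 to 10.0 RPKM.

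**Figure D1:**
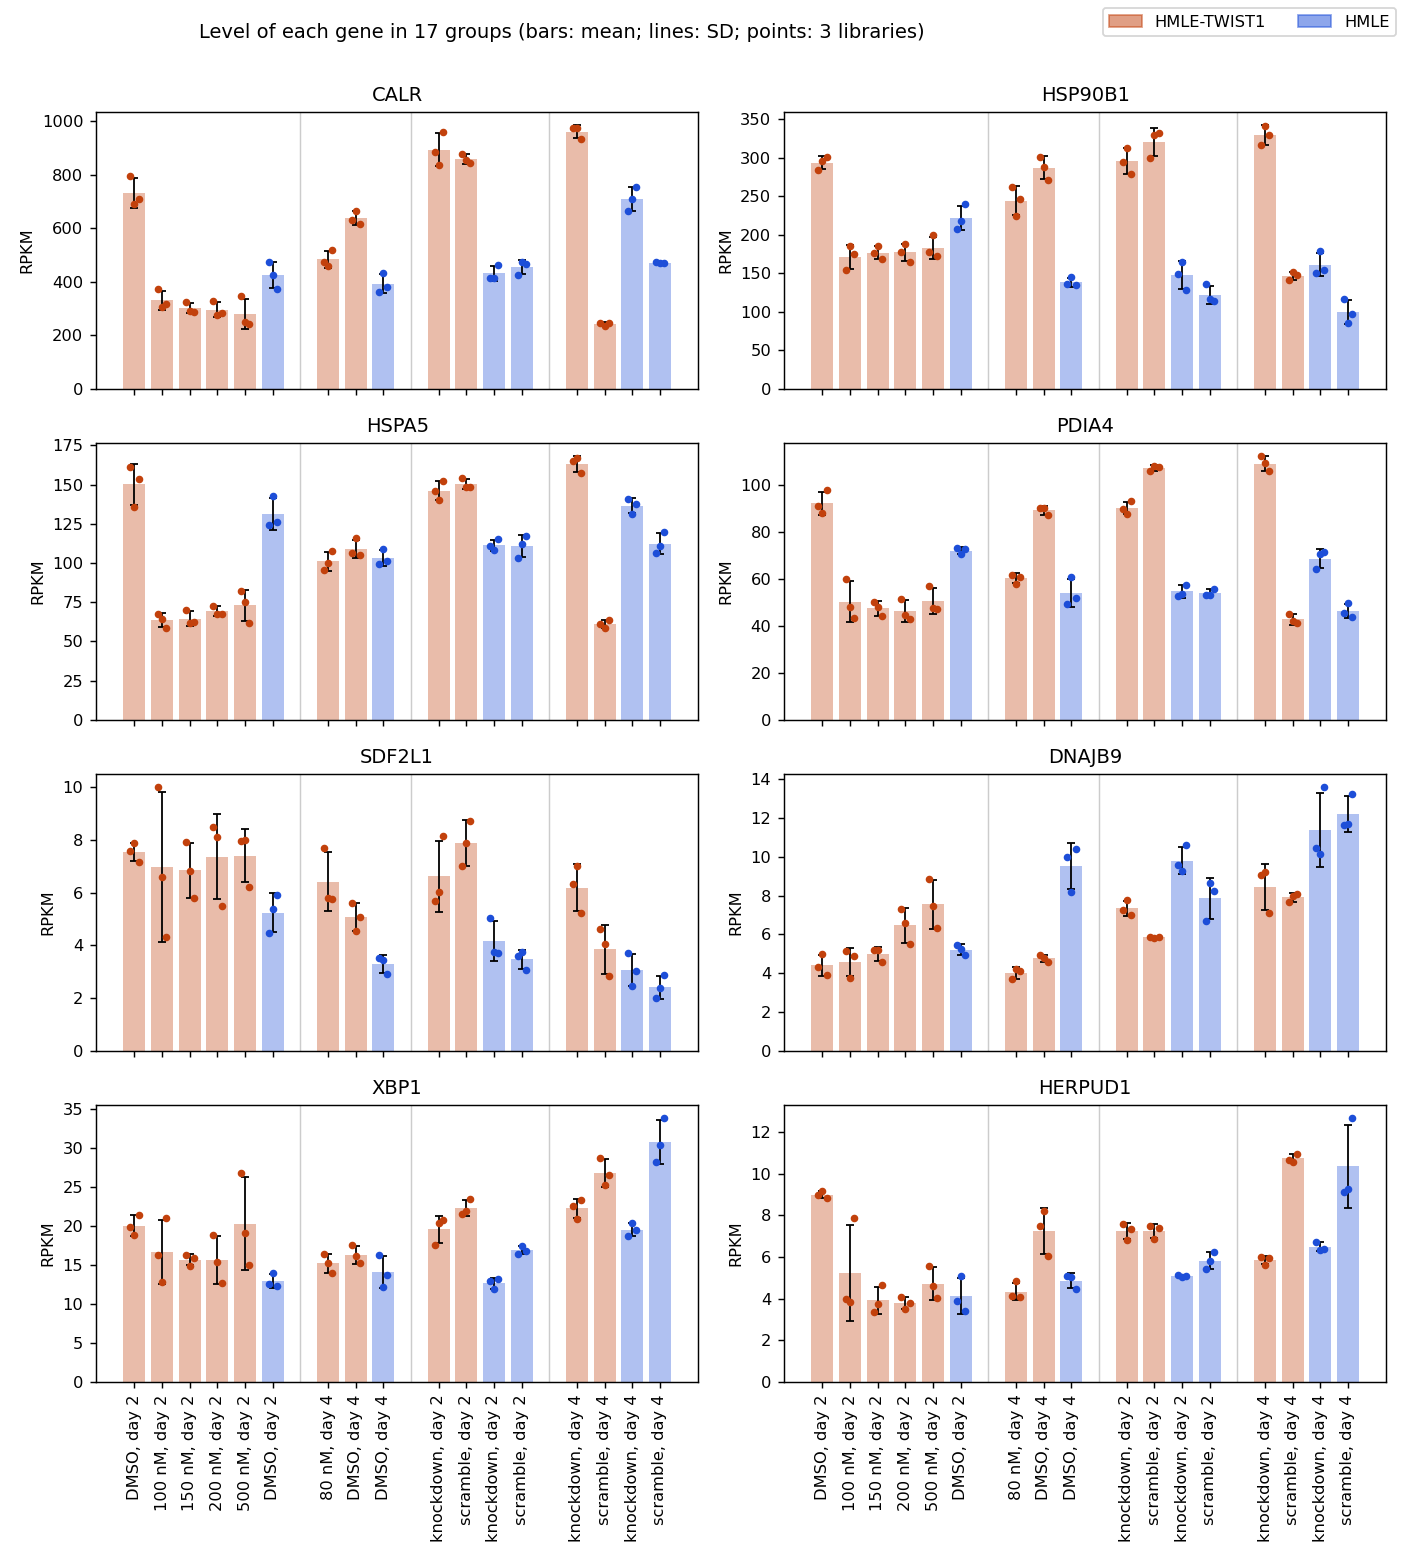
Level of each of the 8 genes in RPKM (y axis, starting at 0) in the 17 groups (x axis), with HMLE-TWIST1 in orange and HMLE in blue; bars are means, lines SD and points the 3 libraries. CALR, HSPA5 and PDIA4 are highest in HMLE-TWIST1 knockdown cells at day 4 (962, 163 and 109 RPKM) and lowest in the scramble cells beside them (241, 61.1 and 42.8 RPKM).

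The range over the 17 group means was of like size in all members, from 2.43 times between lowest and highest group for XBP1 to 3.99 times for CALR. The groups lie in 3 separately processed parts of the table, so between parts a batch and the condition cannot be told apart. HMLE-TWIST1 knockdown cells at day 4 had the highest mean of CALR (962 ± 22.8 RPKM, SD, n = 3), HSPA5, PDIA4 and HSP90B1. The matching HMLE-TWIST1 scramble cells had the lowest mean of CALR (241 ± 6.82 RPKM, SD, n = 3), HSPA5 and PDIA4, and the highest of HERPUD1 (10.7 ± 0.208 RPKM). HSP90B1 was lowest in HMLE scramble cells at day 4, where XBP1 (30.8 ± 2.81 RPKM) and DNAJB9 (12.2 ± 0.911 RPKM) were highest and SDF2L1 was lowest. With the groups set in order of their means, most neighbours overlapped over their libraries: ranges were apart for 4 of 16 neighbouring pairs of groups in PDIA4, 3 in HSPA5 and HERPUD1, 2 in CALR, HSP90B1 and XBP1, 1 in DNAJB9 and 0 in SDF2L1. For HSPA5, HMLE-TWIST1 knockdown at day 4 lay apart from the next group, HMLE-TWIST1 scramble at day 2. It overlapped the group after that, HMLE-TWIST1 DMSO at day 2 (157.5 to 166.8 RPKM, against 136.0 to 161.1 RPKM). The other breaks lay below HMLE DMSO at day 2 and between the 80 nM washout above and the 4 chaetocin doses below. HMLE-TWIST1 scramble at day 4 stood at the end of the order.

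The knockdown comparison at day 4 asked what lowered SUV39H1 and SUV39H2 go with after a further 48 h in fresh medium. In HMLE-TWIST1 cells CALR, HSPA5, PDIA4, HSP90B1 and SDF2L1 were higher in knockdown than in scramble cells, and XBP1 and HERPUD1 were lower. Of the 8 members 7 passed an adjusted p of 0.05 (limma, adjusted by Benjamini-Hochberg over all genes, as in all tests here), 5 higher and 2 lower, where 38.0% of all 17985 genes tested passed (19.0% higher and 19.0% lower). The median log2 fold change of the 8 was 0.91, and that of all genes 0.00.

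CALR had 974, 975 and 935 RPKM in HMLE-TWIST1 knockdown libraries, against 245, 233 and 246 RPKM in scramble libraries. Every knockdown library lay far above every scramble library (log2 difference of 1.98 with SE 0.05, adjusted p = 6.05e-16), and the group means stood 3.99 times apart. HSPA5 had 165, 167 and 158 RPKM in knockdown libraries and 60.8, 58.5 and 63.9 RPKM in scramble libraries, again with no overlap (log2 difference of 1.40 with SE 0.05, adjusted p = 5.93e-13). PDIA4, which forms and reshuffles disulfide bonds in complexes with HSPA5, had 112, 109 and 106 RPKM in knockdown libraries and 45.2, 41.9 and 41.1 RPKM in scramble libraries (log2 difference of 1.34 with SE 0.06, adjusted p = 8.44e-12). HSP90B1, which folds integrins and Toll-like receptors, had 317, 342 and 329.9 RPKM in knockdown libraries and 141, 151 and 147 RPKM in scramble libraries (log2 difference of 1.15 with SE 0.09, adjusted p = 5.53e-07). In these 4 abundant members no knockdown library overlapped a scramble library. The share of all genes whose libraries lay apart in this way was not counted, here or in the comparisons below. SDF2L1, at 5.23 to 7.01 RPKM in knockdown libraries and 2.84 to 4.63 RPKM in scramble libraries, was also higher (log2 difference of 0.67 with SE 0.21, adjusted p = 0.0199), but lost that call without scramble replicate 3 (adjusted p = 0.0834) or knockdown replicate 2 (adjusted p = 0.065).

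HERPUD1, which helps to build the complex that sends misfolded proteins out of the ER, went the other way. It had 6.01, 5.63 and 5.93 RPKM in knockdown libraries and 10.7, 10.6 and 11.0 RPKM in scramble libraries, with no overlap (log2 difference of -0.88 with SE 0.10, adjusted p = 1.96e-06). XBP1 had 22.5, 21.0 and 23.3 RPKM in knockdown libraries and 28.8, 25.3 and 26.5 RPKM in scramble libraries (log2 difference of -0.28 with SE 0.07, adjusted p = 0.00595), a call lost without scramble replicate 1 (adjusted p = 0.0679) or knockdown replicate 2 (adjusted p = 0.0802). DNAJB9 had 9.07, 9.21 and 7.11 RPKM in knockdown libraries and 7.67, 7.98 and 8.08 RPKM in scramble libraries, which overlapped, and its log2 difference was 0.07 (SE 0.11, adjusted p = 0.665). HERPUD1 (lower) and SDF2L1 (higher) both hold an ERSE-II match. XBP1 (lower) holds an ERSE match, as HSPA5, HSP90B1 and CALR (higher) do. The calls of SDF2L1 and XBP1 were each lost without single libraries, and the part of the elements in these directions was not tested.

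In HMLE cells at day 4 the same contrast gave 4 members higher and 2 lower, where 26.1% of 17985 genes passed (11.7% higher and 14.4% lower). HSP90B1 had 150.3, 178 and 154 RPKM in knockdown libraries, against 116, 85.4 and 97.8 RPKM in scramble libraries (log2 difference of 0.68 with SE 0.09, adjusted p = 0.000136). CALR had 664, 711 and 755 RPKM in knockdown libraries, against 475, 470.3 and 469 RPKM in scramble libraries (log2 difference of 0.57 with SE 0.05, adjusted p = 4.59e-08). PDIA4 and HSPA5 were higher by 0.55 and 0.27 on the log2 scale (adjusted p = 2.41e-06 and 0.000985). HERPUD1 had 6.74, 6.35 and 6.39 RPKM in knockdown libraries and 9.12, 9.29 and 12.7 RPKM in scramble libraries, and XBP1 18.7, 20.4 and 19.5 RPKM in knockdown libraries and 28.3, 30.4 and 33.8 RPKM in scramble libraries. Both were lower without overlap, each by 0.67 on the log2 scale (adjusted p = 8.24e-05 and 2.75e-06). SDF2L1 and DNAJB9 did not pass, with log2 fold changes of 0.31 (SE 0.21) and -0.12 (SE 0.11).

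For CALR, HSPA5 and PDIA4 the knockdown difference was larger in HMLE-TWIST1 than in HMLE cells, tested as the difference of the 2 differences. It exceeded the HMLE one by 1.41 (SE 0.06) on the log2 scale for CALR (adjusted p = 2.29e-10), by 1.13 (SE 0.07) for HSPA5 (adjusted p = 2.01e-08) and by 0.79 (SE 0.09) for PDIA4 (adjusted p = 4.7e-06). In all, 5 members passed this test, all with a higher value in HMLE-TWIST1 cells, where 22.9% of genes passed (12.2% higher and 10.7% lower). HSP90B1, at 0.47 (SE 0.13, adjusted p = 0.0231), lost its call without any 1 of 5 of the 12 libraries (adjusted p of 0.052 to 0.0639): HMLE-TWIST1 scramble replicate 1, HMLE-TWIST1 knockdown replicates 2 and 3, and HMLE knockdown replicates 1 and 3. The value for XBP1, 0.39 (SE 0.11), was positive since XBP1 fell less in HMLE-TWIST1 than in HMLE cells. HERPUD1 gave -0.22 (SE 0.14, adjusted p = 0.312), which passed without HMLE scramble replicate 3 (adjusted p = 0.0187). The targets were lowered in part at day 4, SUV39H1 by -1.03 in HMLE-TWIST1 and -0.90 in HMLE cells, and SUV39H2 by -0.81 and -0.50. Their line differences did not pass, at -0.13 (SE 0.36, adjusted p = 0.841) and -0.30 (SE 0.15, adjusted p = 0.176). The part of unequal knockdown was not tested.

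At day 2, directly after 48 h of duplex, fewer members passed than at day 4. In HMLE-TWIST1 cells 2 of 8 passed, 1 higher and 1 lower, where 15.8% of 17888 genes did (7.53% higher and 8.26% lower), and in HMLE cells 3 of 8, 2 higher and 1 lower, where 28.7% of genes did (14.1% higher and 14.7% lower). PDIA4 had 89.8, 87.7 and 93.2 RPKM in HMLE-TWIST1 knockdown libraries, against 106, 108 and 108 RPKM in scramble libraries (log2 difference of -0.26 with SE 0.04, adjusted p = 0.000506), a direction opposite to that at day 4. In HMLE cells PDIA4 gave 0.04 (SE 0.04, adjusted p = 0.519), and the difference between lines was -0.30 (SE 0.06, adjusted p = 0.00415). It was the sole call among the 8 in that test, where 12.2% of genes passed, 6.36% higher and 5.83% lower. The knockdown itself differed between the lines at day 2, with SUV39H2 at -1.21 in HMLE-TWIST1 and -0.39 in HMLE cells. The line difference was -0.82 (SE 0.18, adjusted p = 0.00632) for SUV39H2 and -0.13 (SE 0.27, adjusted p = 0.82) for SUV39H1. The part of unequal knockdown in the PDIA4 value was not tested. CALR, at 884, 837 and 959.7 RPKM in HMLE-TWIST1 knockdown libraries and 878, 854 and 843 RPKM in scramble libraries, overlapped, with a log2 difference of 0.05 (SE 0.05, adjusted p = 0.617). DNAJB9 was higher in knockdown than in scramble cells of both lines, by 0.32 in HMLE-TWIST1 and 0.35 in HMLE on the log2 scale (adjusted p = 0.0267 and 0.00772). Its call in HMLE-TWIST1 cells was lost without any 1 of 5 of the 6 libraries, all but knockdown replicate 3 (adjusted p of 0.0667 to 0.107), and that in HMLE cells without knockdown replicate 3 (adjusted p = 0.0671). XBP1 was lower in HMLE knockdown cells by 0.38 (adjusted p = 0.000354). HSP90B1 was higher in HMLE knockdown cells by 0.30 (adjusted p = 0.0477), a call lost without scramble replicate 2 or 3 or knockdown replicate 1 or 2 (adjusted p of 0.117 to 0.145) and with precision weights (adjusted p = 0.064). XBP1 in HMLE-TWIST1 cells gave -0.20 (SE 0.07, adjusted p = 0.0581) and passed without knockdown replicate 3 (adjusted p = 0.0391) or with precision weights (adjusted p = 0.0316). The difference between lines for HSP90B1, -0.43 (SE 0.14, adjusted p = 0.0851), passed without HMLE scramble replicate 1 (adjusted p = 0.0273) or HMLE knockdown replicate 3 (adjusted p = 0.00648).

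The scramble cells themselves differed between the days, and the scramble libraries of day 4 are shared with the knockdown comparison above. In HMLE-TWIST1 scramble cells all 8 members passed between day 4 and day 2, 3 higher and 5 lower, where 29.1% of 18739 genes passed (13.6% higher and 15.5% lower), and the median of the 8 was -1.08. CALR had 245, 233 and 246 RPKM at day 4, against 878, 854 and 843 RPKM at day 2 (log2 difference of -1.84 with SE 0.05, adjusted p = 2.03e-20). HSPA5 had 60.8, 58.5 and 63.9 RPKM at day 4, against 154, 149 and 149 RPKM at day 2 (log2 difference of -1.31 with SE 0.05, adjusted p = 2.24e-17). PDIA4 had 45.2, 41.9 and 41.1 RPKM at day 4, against 106, 108 and 108 RPKM at day 2 (log2 difference of -1.33 with SE 0.05, adjusted p = 2.24e-17). In all 3 genes the day 4 libraries lay below every day 2 library by a wide margin. HSP90B1 and SDF2L1 fell by 1.13 and 1.03 on the log2 scale (adjusted p = 2.3e-07 and 0.000172). HERPUD1 had 10.7, 10.6 and 11.0 RPKM at day 4, against 7.51, 6.88 and 7.42 RPKM at day 2, and was higher (log2 difference of 0.56 with SE 0.09, adjusted p = 2.58e-05), as were DNAJB9 by 0.42 and XBP1 by 0.26 (adjusted p = 0.0029 and 0.006).

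HMLE-TWIST1 knockdown cells had no such low level at day 4. HSPA5 had 165, 167 and 158 RPKM in knockdown cells at day 4 and 146, 140.0 and 152 RPKM in knockdown cells at day 2, against 154, 149 and 149 RPKM in scramble cells at day 2. CALR averaged 962 ± 22.8 RPKM in knockdown cells at day 4 and 893 ± 62.0 RPKM in knockdown cells at day 2, against 858 ± 17.7 RPKM in scramble cells at day 2 (SD, n = 3 each). Of these groups the scramble group of day 4 lay farthest from the others in both genes. Knockdown libraries of day 4 also lay above every HMLE-TWIST1 duplex library of day 2 in HSPA5 (158 to 167 RPKM, against 140.0 to 154 RPKM). In CALR they lay above the scramble libraries of day 2 and overlapped the knockdown libraries of day 2. No test was made between the knockdown days. HMLE-TWIST1 DMSO cells, on another day 4 schedule and in another part of the table, had 631, 666 and 615 RPKM of CALR. Their HSPA5 averaged 109 ± 5.88 RPKM (SD, n = 3), between the scramble and the knockdown groups of day 4. Scramble and DMSO groups were not tested against each other. Their parts of the table were processed separately and their schedules differ.

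In HMLE scramble cells XBP1, HERPUD1 and DNAJB9 rose as well, while CALR and HSPA5 did not pass. Of the 8 members 3 were higher and 3 lower at day 4 than at day 2, where 42.3% of genes passed (21.7% higher and 20.6% lower). XBP1 had 28.3, 30.4 and 33.8 RPKM at day 4, against 16.4, 17.4 and 16.8 RPKM at day 2 (log2 difference of 0.86 with SE 0.07, adjusted p = 1.12e-10). HERPUD1 had 9.12, 9.29 and 12.7 RPKM at day 4, against 5.43, 5.82 and 6.24 RPKM at day 2 (log2 difference of 0.81 with SE 0.09, adjusted p = 3.46e-08), and DNAJB9 was higher by 0.63 (adjusted p = 1.72e-05). CALR and HSPA5 gave log2 fold changes of 0.05 (SE 0.05, adjusted p = 0.425) and 0.02 (SE 0.05, adjusted p = 0.803). PDIA4 fell by 0.23 (adjusted p = 0.000587). HSP90B1 fell by 0.30 (adjusted p = 0.0374), a call lost without day 4 replicate 2 or 3 or day 2 replicate 1 (adjusted p of 0.0617 to 0.177), and SDF2L1 fell by 0.51 (adjusted p = 0.0391), a call lost without day 4 replicate 1 or 2 or day 2 replicate 1 or 2 (adjusted p of 0.0708 to 0.168). With precision weights both calls were lost (adjusted p = 0.0569 and 0.0965). The lines differed in the change between days for 5 members, all lower in HMLE-TWIST1 cells, where 34.4% of genes passed (16.6% higher and 17.8% lower). This difference was -1.89 (SE 0.07) for CALR, -1.33 (SE 0.07) for HSPA5 and -1.11 (SE 0.07) for PDIA4 on the log2 scale (adjusted p = 3.66e-17, 3.81e-14 and 2.07e-12). For HERPUD1 it was -0.25 (SE 0.13, adjusted p = 0.136), which passed without HMLE day 4 replicate 1 (adjusted p = 0.0496).

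Markers of the mesenchymal state stood at different levels in these groups as well. In HMLE-TWIST1 cells the 5 mesenchymal markers summed to 10010 to 10210 CPM in knockdown libraries at day 4, against 19440 to 21150 CPM in scramble libraries at day 4 and 29930 to 31760 CPM in scramble libraries at day 2. The 5 epithelial markers summed to 6.14 to 6.89 CPM in the knockdown libraries of day 4, against 2.04 to 2.31 CPM in the scramble libraries of day 4 and 3.22 to 4.36 CPM in those of day 2. All 10 markers had reads in these groups. Of the leukocyte, endothelial and adipocyte markers, of which 2 each are in the table, the libraries of these 3 groups summed to at most 0.358, 7.88 and 1.71 CPM. Their part in the result was not tested.

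Other genes of the ER and of its stress pathways were read in the same 2 contrasts of HMLE-TWIST1 cells. Of 10 disulfide isomerases and oxidases, 8 were higher and 0 lower in knockdown than in scramble cells at day 4 (median 0.53 against 0.00 for all genes, of which 19.0% were higher and 19.0% lower). They include PDIA3, which works with CALR on glycoproteins (log2 difference of 1.44 with SE 0.09, adjusted p = 4.5e-09), and PDIA6 (log2 difference of 0.88 with SE 0.06, adjusted p = 1.88e-09). Between day 4 and day 2 in scramble cells, 6 of these 10 fell and 1 rose (median -0.57), where 15.5% of all genes fell and 13.6% rose, with P4HB, the main protein disulfide isomerase, at -1.08 (SE 0.04, adjusted p = 6.48e-17). Of 11 other chaperones and cofactors, 4 were higher and 1 lower in knockdown cells (median -0.04), among them MANF, a stress-induced ER protein, at 0.60 (SE 0.09, adjusted p = 6.1e-05), DNAJB11, a partner of HSPA5, at 0.46 (SE 0.08, adjusted p = 0.000237), and UGGT1, the glycoprotein folding sensor, at -0.48 (SE 0.05, adjusted p = 7.43e-07). In scramble cells 8 of the 11 fell and 1 rose by day 4 (median -0.29).

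PERK slows translation under ER stress and raises ATF4, which induces stress genes. Of 12 genes of the PERK and ATF4 branch, 10 were lower and 0 higher in knockdown than in scramble HMLE-TWIST1 cells at day 4 (median -1.01), where 19.0% and 19.0% of all genes were higher and lower. Between day 4 and day 2 in scramble cells 10 of them rose and 0 fell (median 1.61), where 13.6% and 15.5% of all genes did, and in HMLE scramble cells 11 rose and 1 fell (median 1.19), where 21.7% and 20.6% did. DDIT3 (CHOP), a stress transcription factor, was lower in HMLE-TWIST1 knockdown cells by 1.15 on the log2 scale (adjusted p = 2.28e-05) and rose by 2.49 between the scramble days (adjusted p = 3.83e-12). TRIB3, which DDIT3 induces, gave -2.70 (SE 0.22, adjusted p = 2.03e-07) in the knockdown contrast and 2.93 (SE 0.18, adjusted p = 1.05e-12) between the scramble days, and PPP1R15A (GADD34), which restores translation, -1.22 (SE 0.08, adjusted p = 1.06e-09) and 1.47 (SE 0.08, adjusted p = 1.33e-13).

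The sensors did not move as 1 group. ERN1 was lower in HMLE-TWIST1 knockdown than in scramble cells at day 4, by 1.21 on the log2 scale (adjusted p = 5.98e-07), and higher in scramble cells at day 4 than at day 2, by 1.23 (adjusted p = 6.76e-08). ATF6 moved the same way with smaller differences, -0.52 and 0.57 (adjusted p = 7.18e-06 and 2.03e-08). EIF2AK3 moved the opposite way, 0.51 and -0.43 (adjusted p = 1.01e-05 and 1.15e-05). ATF6B, the remaining one of the 4, did not pass in the knockdown contrast or between the scramble days, with 0.00 (SE 0.09, adjusted p = 0.983) and -0.07 (SE 0.08, adjusted p = 0.573).

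In the knockdown contrast 38.0% of all genes passed, 19.0% higher and 19.0% lower. Of 12 measured genes of ER-associated degradation 2 were higher and 4 lower, with SEL1L, a scaffold of the pathway, at -0.75 (SE 0.07, adjusted p = 2.7e-07) and EDEM1, a lectin that selects its substrates, at -0.70 (SE 0.07, adjusted p = 3.26e-07). Of 16 genes of the translocon and signal peptide handling 4 were higher and 5 lower, and of 14 of transport to the Golgi 5 and 4. Of 11 heat shock genes of the cytosol and mitochondria 8 were higher and 0 lower (median 0.39), with HSPB1 at 0.57 (SE 0.05, adjusted p = 1.78e-07). Of 10 collagens and other matrix proteins, a main cargo of a mesenchymal cell's ER, 2 were higher and 2 lower, with fibronectin (FN1) at -1.20 (SE 0.10, adjusted p = 1.65e-06). Between the scramble days 9 of these 10 fell (median -0.66), with COL1A1 at -1.34 (SE 0.07, adjusted p = 2e-13), as did 11 of the 14 transport genes, 8 of the 16 translocon genes and 8 of the 11 heat shock genes, and none of these 4 lists had a gene that rose. Of all genes 15.5% fell and 13.6% rose between the scramble days.

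**Figure D2:**
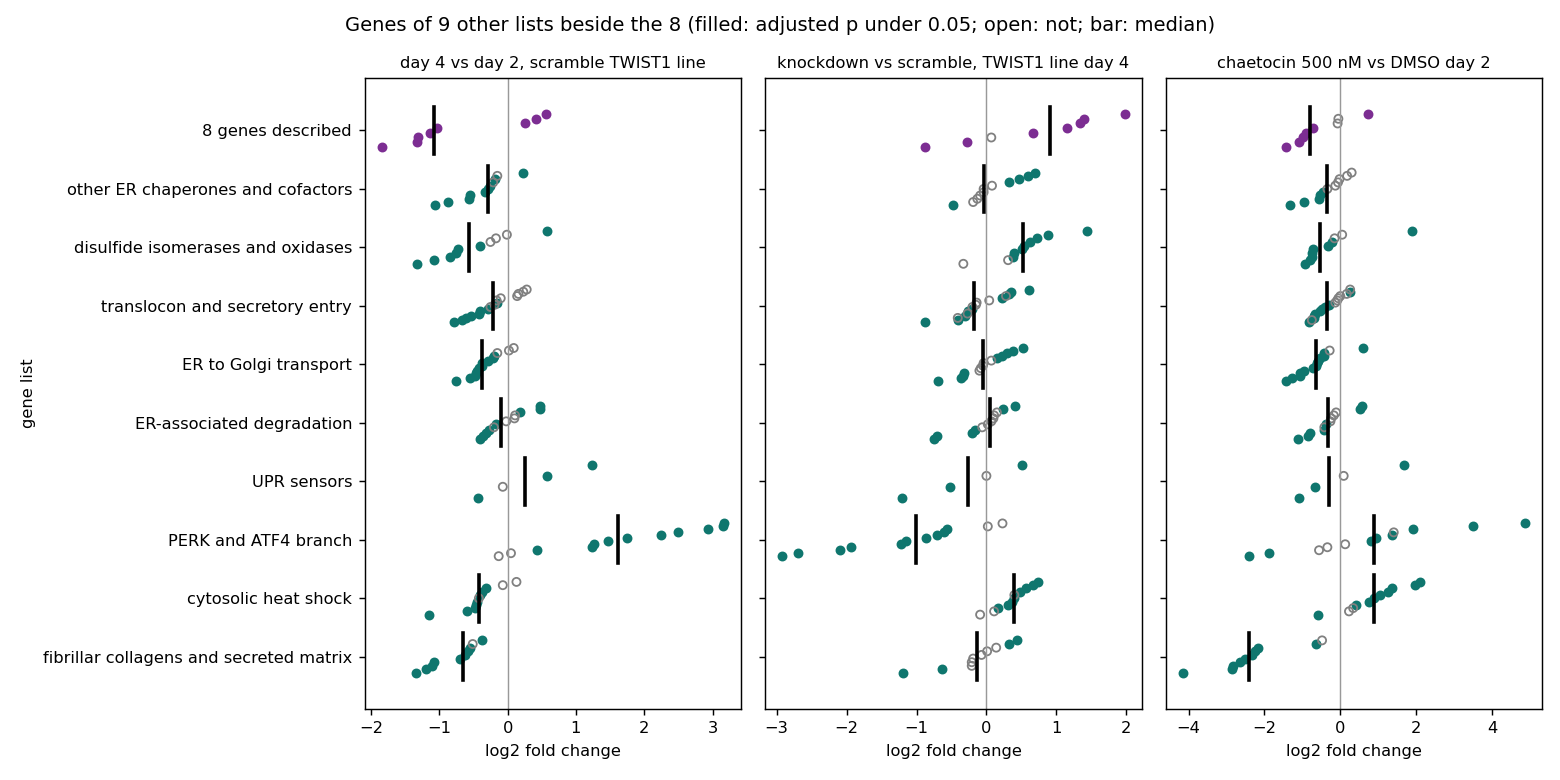
Log2 fold change (x axis) of single genes of the 8 described and of 9 other lists (y axis) in 3 contrasts of HMLE-TWIST1 cells; filled points passed an adjusted p of 0.05, open points did not, and bars are medians. The PERK and ATF4 list lies right of 0 between the scramble days (median 1.61) and left of it in the knockdown contrast (median -1.01).

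The comparison of the lines in DMSO asked what TWIST1 goes with in untreated cells. At day 2, HMLE-TWIST1 cells had 5 of 8 members higher and 0 lower than HMLE cells, where 47.4% of 18801 genes passed (24.1% higher and 23.2% lower). HERPUD1 had 8.98, 9.19 and 8.83 RPKM in HMLE-TWIST1 libraries and 3.88, 5.08 and 3.42 RPKM in HMLE libraries (log2 difference of 1.12 with SE 0.22, adjusted p = 0.00046). CALR had 794, 691 and 708 RPKM in HMLE-TWIST1 libraries and 474, 426 and 375 RPKM in HMLE libraries (log2 difference of 0.77 with SE 0.13, adjusted p = 6.32e-05). Neither gene's groups overlapped. HSP90B1 was higher by 0.39 (adjusted p = 0.00197), XBP1 by 0.62 (adjusted p = 0.0116) and PDIA4 by 0.34 (adjusted p = 0.0148). The XBP1 call was lost without HMLE-TWIST1 replicate 3 or HMLE replicate 1 or 3 (adjusted p of 0.0556 to 0.0698), and the PDIA4 call without HMLE-TWIST1 replicate 2 or 3 or HMLE replicate 1 or 3 (adjusted p of 0.0506 to 0.122). HSPA5 had 161, 136 and 153 RPKM in HMLE-TWIST1 libraries and 124, 143 and 126 RPKM in HMLE libraries, which overlapped, and gave 0.18 (SE 0.10, adjusted p = 0.166). DNAJB9 gave -0.26 (SE 0.15, adjusted p = 0.164) and SDF2L1 0.50 (SE 0.24, adjusted p = 0.0914), SDF2L1 passing with the deposited log2 RPKM in place of reads (adjusted p = 0.00536).

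On the day 4 schedule of DMSO, 5 members were higher and 1 lower, where 66.9% of 17585 genes passed (33.5% higher and 33.4% lower). HSP90B1 had 301, 289 and 271 RPKM in HMLE-TWIST1 libraries and 136, 145 and 134 RPKM in HMLE libraries (log2 difference of 1.01 with SE 0.07, adjusted p = 3.85e-09). DNAJB9 was the member that was lower, with 4.95, 4.81 and 4.59 RPKM in HMLE-TWIST1 libraries and 10.0, 8.18 and 10.4 RPKM in HMLE libraries (log2 difference of -1.01 with SE 0.12, adjusted p = 1.76e-06). PDIA4, CALR, SDF2L1 and HERPUD1 were higher by 0.69, 0.66, 0.56 and 0.53 on the log2 scale (adjusted p = 7.21e-07, 8.19e-07, 0.0112 and 0.00125). HSPA5 again did not pass, with 0.04 (SE 0.07, adjusted p = 0.576), nor did XBP1, with 0.18 (SE 0.10, adjusted p = 0.134). XBP1 passed without HMLE replicate 1 (adjusted p = 0.0122), and with total-read scaling both passed (log2 fold changes of 0.27 and 0.41, where the median of all genes was 0.23).

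With the scramble duplex at day 2 all 8 members passed, 7 higher and DNAJB9 lower in HMLE-TWIST1 cells, where 69.0% of 17888 genes passed (35.7% higher and 33.3% lower). HSP90B1 had 299, 329 and 332 RPKM in HMLE-TWIST1 libraries and 136, 116 and 114 RPKM in HMLE libraries (log2 difference of 1.44 with SE 0.10, adjusted p = 1.71e-07). SDF2L1, which binds the HSPA5 partner DNAJB11, was higher by 1.19 (adjusted p = 6.2e-06), PDIA4 by 1.03 (adjusted p = 4.41e-13) and HSPA5 by 0.49 (adjusted p = 3.07e-08). CALR, XBP1 and HERPUD1 were higher by 0.96, 0.44 and 0.36 (adjusted p = 7.53e-12, 1.27e-05 and 0.000394), and DNAJB9 was lower by 0.37 (adjusted p = 0.00177).

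With the scramble duplex at day 4 the order of the lines was turned round for 2 of the most abundant members. Of the 8, 2 were higher and 4 lower in HMLE-TWIST1 cells, where 74.4% of 17985 genes passed (37.6% higher and 36.8% lower). CALR had 245, 233 and 246 RPKM in HMLE-TWIST1 libraries and 475, 470.3 and 469 RPKM in HMLE libraries (log2 difference of -0.97 with SE 0.05, adjusted p = 1.25e-12), and HSPA5 60.8, 58.5 and 63.9 RPKM in HMLE-TWIST1 libraries and 106, 111 and 119.8 RPKM in HMLE libraries (log2 difference of -0.88 with SE 0.05, adjusted p = 4.07e-11). Both groups of libraries were apart, on the opposite side to day 2. HSP90B1 stayed higher in HMLE-TWIST1 cells (0.56, adjusted p = 0.000106) and DNAJB9 lower (-0.62, adjusted p = 9.52e-05). SDF2L1 was higher by 0.63 (adjusted p = 0.0139), a call lost without HMLE-TWIST1 replicate 1 or 2 or HMLE replicate 1 (adjusted p of 0.0523 to 0.0767). XBP1 gave -0.20 (SE 0.07, adjusted p = 0.0238), lost without HMLE-TWIST1 replicate 2 or HMLE replicate 3 (adjusted p of 0.078 to 0.134) and with the deposited log2 RPKM (adjusted p = 0.098), and PDIA4 and HERPUD1 gave -0.12 (SE 0.06, adjusted p = 0.086) and 0.07 (SE 0.10, adjusted p = 0.554). PDIA4 passed without HMLE-TWIST1 replicate 1 (adjusted p = 0.03) or HMLE replicate 3 (adjusted p = 0.0397), and HERPUD1 without HMLE replicate 3 (adjusted p = 0.0183). With libraries scaled by total reads alone, which moves the median of all genes to 0.38, XBP1 and PDIA4 gave 0.17 and 0.25, on the other side of 0, and -0.21 and -0.13 relative to that median.

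Between the 2 DMSO schedules few genes of HMLE-TWIST1 cells passed, members included. HSPA5 was the sole call of 8, where 0.351% of 17680 genes passed (0.147% higher and 0.204% lower), with 107, 116 and 105 RPKM on the day 4 schedule and 161, 136 and 153 RPKM at day 2 (log2 difference of -0.46 with SE 0.07, adjusted p = 0.015). The groups did not overlap, but the call was lost without day 4 replicate 1 or 3 or day 2 replicate 3 (adjusted p of 0.0563 to 0.0906) and with the deposited log2 RPKM in place of reads (adjusted p = 0.0871). In HMLE cells 1 member was higher and 4 were lower, where 36.0% of genes passed (20.6% higher and 15.4% lower). DNAJB9 had 10.0, 8.18 and 10.4 RPKM on the day 4 schedule and 5.46, 5.28 and 4.92 RPKM at day 2 (log2 difference of 0.87 with SE 0.12, adjusted p = 2.75e-05). HSP90B1 fell to 136, 145 and 134 RPKM on the day 4 schedule, against 208, 218 and 239 RPKM at day 2 (log2 difference of -0.66 with SE 0.07, adjusted p = 9.4e-07), and SDF2L1, PDIA4 and HSPA5 fell by 0.63, 0.40 and 0.33 on the log2 scale (adjusted p = 0.00593, 0.000349 and 0.00231). HERPUD1 gave 0.27 (SE 0.13, adjusted p = 0.128) and passed without day 2 replicate 2 (adjusted p = 0.0172). The change between schedules differed between the lines for 5 members, 2 higher and 3 lower in HMLE-TWIST1 cells, where 19.6% of genes passed (8.14% higher and 11.5% lower). Leaving out 1 library gave 2 to 5 members, since XBP1, HERPUD1 and PDIA4 lost their calls without any 1 of 8, 9 and 2 of the 12 libraries (adjusted p of 0.0517 to 0.112). HSP90B1 differed by 0.63 (SE 0.09) and DNAJB9 by -0.75 (SE 0.17) (adjusted p = 0.000159 and 0.00488).

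**Figure D3:**
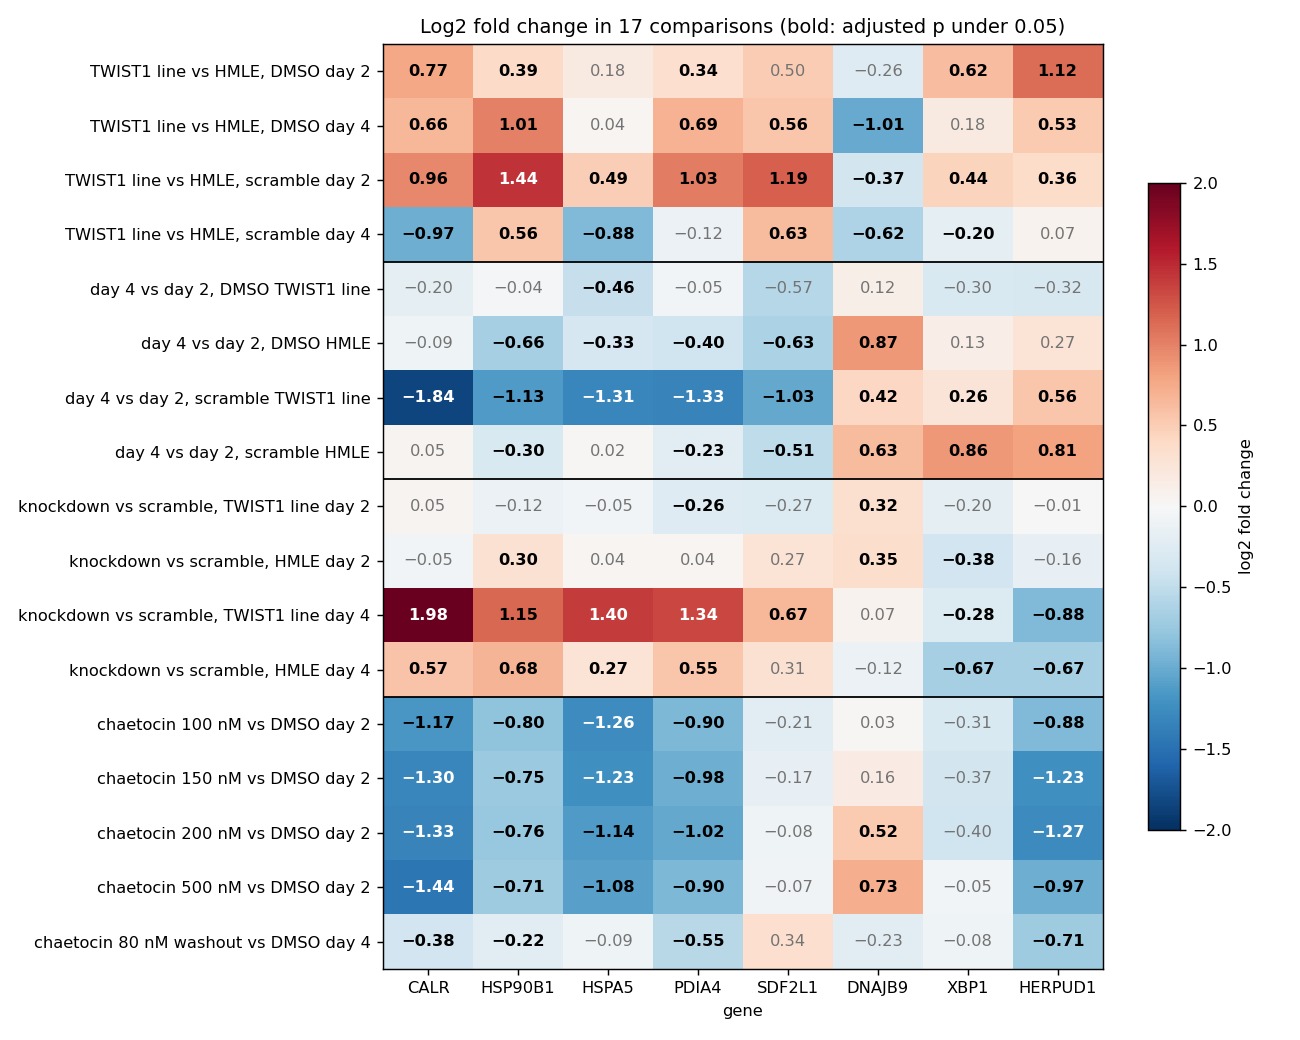
Log2 fold change of the 8 genes (columns) in 17 comparisons (rows), on a colour scale from -2 (blue) to 2 (red); bold values passed an adjusted p of 0.05 over all genes. CALR runs from -1.84 between the scramble days to 1.98 in the knockdown contrast, both in HMLE-TWIST1 cells, and the 5 falling members form the same columns at all 4 chaetocin doses.

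Chaetocin was given to HMLE-TWIST1 cells only. Its doses were processed by the authors in a part of the table separate from DMSO, so a batch and the treatment cannot be told apart in the comparisons with DMSO. At 100 nM 5 of 8 members were lower and 0 higher than in DMSO, where 23.7% of 18801 genes passed (11.9% higher and 11.8% lower). At 150 nM the counts were again 5 lower and 0 higher (34.3% of all genes, 17.8% higher and 16.5% lower), at 200 nM 5 lower and 1 higher (40.0%, 20.9% higher and 19.1% lower) and at 500 nM 5 lower and 1 higher (50.7%, 26.0% higher and 24.8% lower). The same 5 genes, HSPA5, CALR, PDIA4, HSP90B1 and HERPUD1, were lower at each dose. The median of the 8 members lay between -0.81 and -0.89 at the 4 doses, and that of all genes between 0.01 and 0.02.

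HSPA5 had 67.7, 64.5 and 58.9 RPKM at 100 nM and 81.9, 75.0 and 61.9 RPKM at 500 nM, against 161, 136 and 153 RPKM in DMSO. All 12 dose libraries lay below all 3 DMSO libraries, and the log2 fold change was -1.26 (SE 0.10) at 100 nM and -1.08 (SE 0.10) at 500 nM (adjusted p = 1.17e-06 and 6e-07). CALR had 372, 304 and 317 RPKM at 100 nM and 345, 252 and 241 RPKM at 500 nM, against 794, 691 and 708 RPKM in DMSO. It was lower by 1.17 at 100 nM and 1.44 at 500 nM on the log2 scale (adjusted p = 1.81e-05 and 3.48e-07), again with no overlap. PDIA4 was lower by 0.90 to 1.02 over the 4 doses (adjusted p of 3.6e-06 to 3.39e-05), and HSP90B1 by 0.71 to 0.80 (adjusted p of 1.13e-05 to 2.81e-05). HERPUD1 had 4.07, 3.48 and 3.78 RPKM at 200 nM and 8.98, 9.19 and 8.83 RPKM in DMSO (log2 difference of -1.27 with SE 0.22, adjusted p = 0.000321). At 100 nM its libraries spread from 3.84 to 7.89 RPKM, and the call (-0.88, adjusted p = 0.00963) was lost without 100 nM replicate 1 or 2 (adjusted p = 0.0514 and 0.054).

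DNAJB9 was the member that rose with dose. It had 4.32, 4.97 and 3.92 RPKM in DMSO, 5.15, 3.75 and 4.87 RPKM at 100 nM, 5.22, 5.18 and 4.57 RPKM at 150 nM, 7.29, 6.59 and 5.52 RPKM at 200 nM and 8.86, 7.45 and 6.34 RPKM at 500 nM. Its libraries at 200 and 500 nM all lay above the DMSO libraries. Against DMSO it gave 0.03 (SE 0.15, adjusted p = 0.897) at 100 nM, 0.16 (SE 0.15, adjusted p = 0.428) at 150 nM, 0.52 (SE 0.15, adjusted p = 0.0109) at 200 nM and 0.73 (SE 0.15, adjusted p = 0.000666) at 500 nM. The call at 200 nM was lost without 200 nM replicate 1 (adjusted p = 0.0514) or DMSO replicate 3 (adjusted p = 0.0616). SDF2L1 and XBP1 passed at no dose, with log2 fold changes of -0.21 to -0.07 and -0.40 to -0.05, and their libraries overlapped DMSO at every dose but 150 nM for XBP1, where 16.3, 14.8 and 15.9 RPKM lay below 19.9, 18.8 and 21.4 RPKM in DMSO.

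A trend within the dose libraries, which share 1 part of the table, was fitted as a slope per doubling of dose from 100 to 500 nM. Of the 8 only DNAJB9 passed, with a slope of 0.31 (SE 0.07) on the log2 scale (adjusted p = 0.0122), where 16.4% of 18021 genes passed (8.83% higher and 7.59% lower). The call was lost without 500 nM replicate 2 (adjusted p = 0.0564). With the replicate number as a block, which these libraries call for, DNAJB9, HSPA5 and CALR passed, 3 of the 8, where 36.9% of all genes did. HSPA5 then had a slope of 0.08 (adjusted p = 0.0386) and CALR one of -0.11 (adjusted p = 0.0075), against adjusted p of 0.231 and 0.191 without the block. CALR also passed without the block when 500 nM replicate 1 was left out (slope of -0.18, adjusted p = 0.0199). HSPA5 and CALR were thus already more than 1 log2 unit below DMSO at the lowest dose, while DNAJB9 rose between the lowest and the highest.

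**Figure D4:**
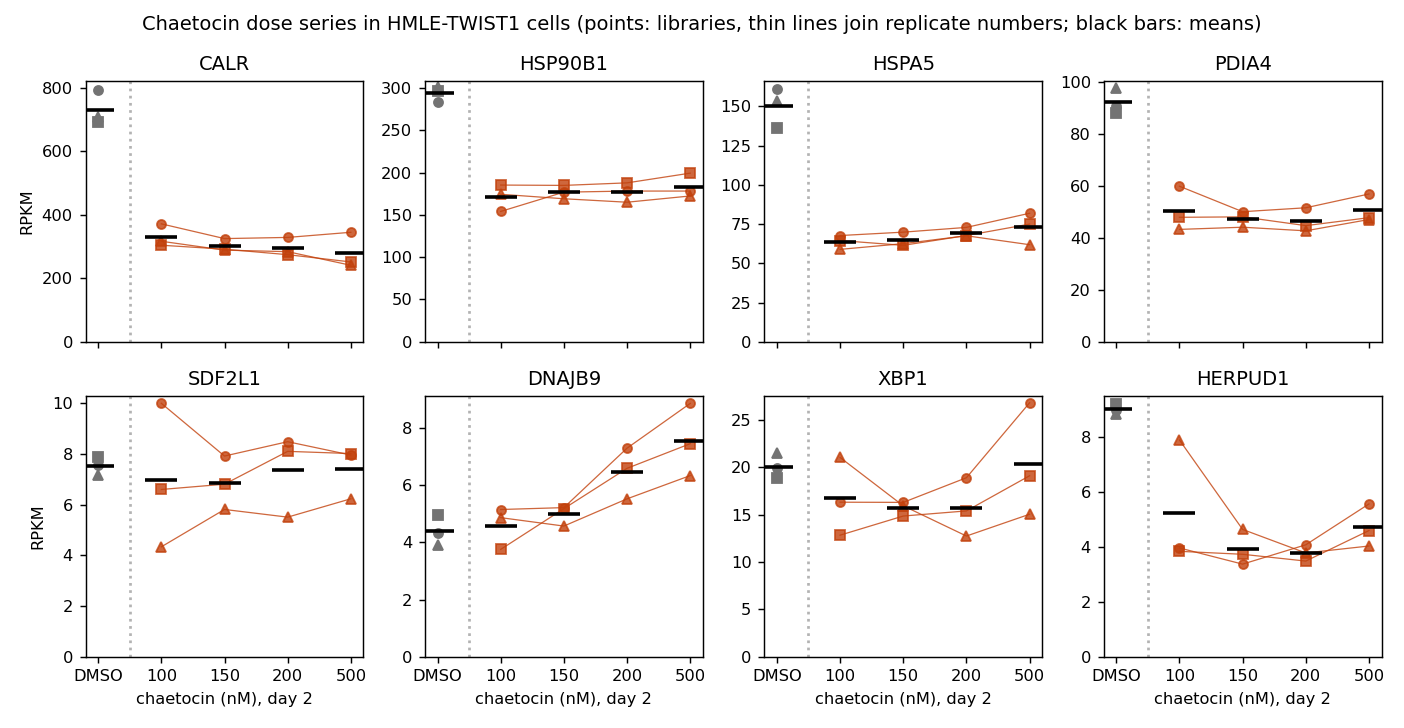
RPKM (y axis, from 0) of the 8 genes in HMLE-TWIST1 cells in DMSO and at 4 doses of chaetocin at day 2 (x axis, categories not to scale); points are libraries, thin lines join replicate numbers across doses and black bars are means. HSPA5 averages 63.7 to 72.9 RPKM at the doses, against 150.1 RPKM in DMSO, and DNAJB9 7.55 RPKM at 500 nM, against 4.40 RPKM in DMSO.

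After 80 nM for 15 h and 48 h without drug, 4 of 8 members were lower and 0 higher than in DMSO on the same schedule, where 36.7% of 17585 genes passed (19.4% higher and 17.3% lower). These libraries lie in 1 part of the table. HERPUD1 had 4.10, 4.83 and 4.09 RPKM after the washout and 7.47, 8.24 and 6.07 RPKM in DMSO (log2 difference of -0.71 with SE 0.12, adjusted p = 0.000393). PDIA4 had 61.9, 57.9 and 61.0 RPKM after the washout and 90.2, 90.2 and 87.2 RPKM in DMSO (log2 difference of -0.55 with SE 0.07, adjusted p = 5.45e-05). CALR had 473, 460.5 and 518 RPKM after the washout and 631, 666 and 615 RPKM in DMSO (log2 difference of -0.38 with SE 0.07, adjusted p = 0.000827). In these 3 genes the washout libraries all lay below the DMSO libraries. HSP90B1 gave -0.22 (SE 0.07, adjusted p = 0.0215), a call lost without washout replicate 2 or 3 or DMSO replicate 1 (adjusted p of 0.0572 to 0.121), with total-read scaling (adjusted p = 0.165) and with the deposited log2 RPKM (adjusted p = 0.0639). HSPA5 had 95.8, 100.2 and 108 RPKM after the washout and 107, 116 and 105 RPKM in DMSO, which overlapped, and gave -0.09 (SE 0.07, adjusted p = 0.302). Dose and schedule both differ from the 48 h treatments, so no test was made between them.

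The sum of the 5 mesenchymal markers was also lower under the drug, at 5851 to 7985 CPM at 500 nM, against 25690 to 30870 CPM in DMSO at day 2. After the washout it was 12680 to 19060 CPM, against 24960 to 31590 CPM in its DMSO. A sum can rest on few genes. The mesenchymal gene VIM passed at none of the 4 doses (log2 fold changes of -0.21 to 0.00) and gave 0.42 (SE 0.18, limma, adjusted p = 0.104) after the washout. Epithelial markers summed to 4.19 to 5.65 CPM at 500 nM, against 2.91 to 3.63 CPM in DMSO at day 2. The 2 leukocyte markers in the table, of 4 listed, summed to 4.28 to 17.2 CPM at 500 nM, against 0.0734 to 0.154 CPM in DMSO at day 2, and to 4.66 to 8.58 CPM after the washout, against 0.0858 to 0.240 CPM in its DMSO, where PTPRC was at 0 reads. Their part in the results was not tested.

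At 500 nM 50.7% of all genes passed, 26.0% higher and 24.8% lower. Among the other lists 9 of 10 matrix genes were lower and 0 higher (median -2.42), with COL5A1 at -2.85 (SE 0.27, adjusted p = 1.22e-06). Of 14 genes of transport to the Golgi 12 were lower and 1 higher (median -0.64), with TMED10, a cargo receptor, at -1.28 (SE 0.09, adjusted p = 4.07e-08), and of 10 isomerases and oxidases 7 were lower and 1 higher, with PDIA3 at -0.94 (SE 0.10, adjusted p = 2e-06). Of 11 other chaperones 5 were lower and 0 higher, with UGGT1 at -0.95 (SE 0.07, adjusted p = 6.36e-08) and SERPINH1, the collagen chaperone, at -1.33 (SE 0.14, adjusted p = 1.7e-06). Of 16 translocon genes 8 were lower and 1 higher, and of 12 measured degradation genes 5 lower and 2 higher.

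In both stress lists more genes were higher than lower at the same dose, where 26.0% of all genes were higher and 24.8% lower. Of 11 heat shock genes 8 were higher and 1 lower (median 0.88), with HSPA1A, the inducible HSP70 of the cytosol, at 2.11 (SE 0.27, adjusted p = 1.45e-05). HSPA1A and HSPA1B are near-identical copies whose reads the counting may have split. Of 12 PERK and ATF4 genes 6 were higher and 2 lower (median 0.88), with ATF3, an early stress factor, at 4.88 (SE 0.36, adjusted p = 1.81e-07) and DDIT3 at 1.92 (SE 0.58, adjusted p = 0.0127). Among the sensors ERN1 was higher (1.67, adjusted p = 1.81e-05), ATF6 and ATF6B were lower (-0.66 and -1.09, adjusted p = 3.52e-05 and 3.73e-06), and EIF2AK3 gave 0.09 (SE 0.14, adjusted p = 0.59). After the washout 8 of the 11 heat shock genes were higher and 0 lower (median 0.79), where 19.4% and 17.3% of all genes were, ERN1 gave 0.15 (SE 0.14, adjusted p = 0.444), and DDIT3 gave -0.19 (SE 0.14, adjusted p = 0.319).

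Likeness of the patterns was described by Pearson r over the 17 group means of log2 CPM, each centred on the mean of its part of the table. Groups within a part share its processing, so r is a description. The 4 chaetocin doses form a part without DMSO, so the centring takes their difference from DMSO out of every r. These r therefore do not cover the change from DMSO to the doses. The most alike pairs were HSP90B1 with SDF2L1 and with PDIA4 (r of 0.92 each), followed by PDIA4 and CALR (0.91), HSPA5 and CALR (0.88), XBP1 and HERPUD1 (0.83), HSPA5 and PDIA4 (0.80) and SDF2L1 and PDIA4 (0.79). XBP1 and HERPUD1 had r of -0.08 and -0.23 to HSPA5. The lowest r were those of DNAJB9 with SDF2L1 (-0.73) and HSP90B1 (-0.63). For some members such r were common over all genes. Among 11832 genes HSPA5 ranked 3910 in likeness to SDF2L1 (0.50) and 3255 in likeness to HSP90B1 (0.58). PDIA4 ranked 1194 in likeness to SDF2L1, while HSP90B1 ranked 12. Without the 2 groups farthest from the median of HSPA5, HMLE-TWIST1 knockdown and scramble at day 4, r of HSPA5 was 0.72 to CALR, 0.77 to PDIA4, 0.26 to XBP1 and 0.30 to HERPUD1, so the negative values of the last 2 rest on those groups. Spearman's rho was 0.77 for HSPA5 and CALR, 0.80 for XBP1 and HERPUD1 and 0.92 for HSP90B1 and SDF2L1.

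Over 11832 genes the 5 most like HSPA5 were PDIA3 (r = 0.91), SON, a splicing cofactor (0.91), PDIA3P1 (0.89), CALR (0.88) and ZMYND8, a chromatin reader (0.86). Without the 2 farthest groups these were 0.81, 0.71, 0.77, 0.72 and 0.58. PDIA3P1 is a copy of PDIA3, and reads of the 2 may have been split in counting. The median r to HSPA5 was 0.31 in both the other chaperones and the isomerases, -0.17 in the sensors, -0.37 in the PERK and ATF4 list and 0.01 over all genes, with r available for 11 of 11, 9 of 10, 4 of 4 and 10 of 12 genes of these lists.

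**Figure D5:**
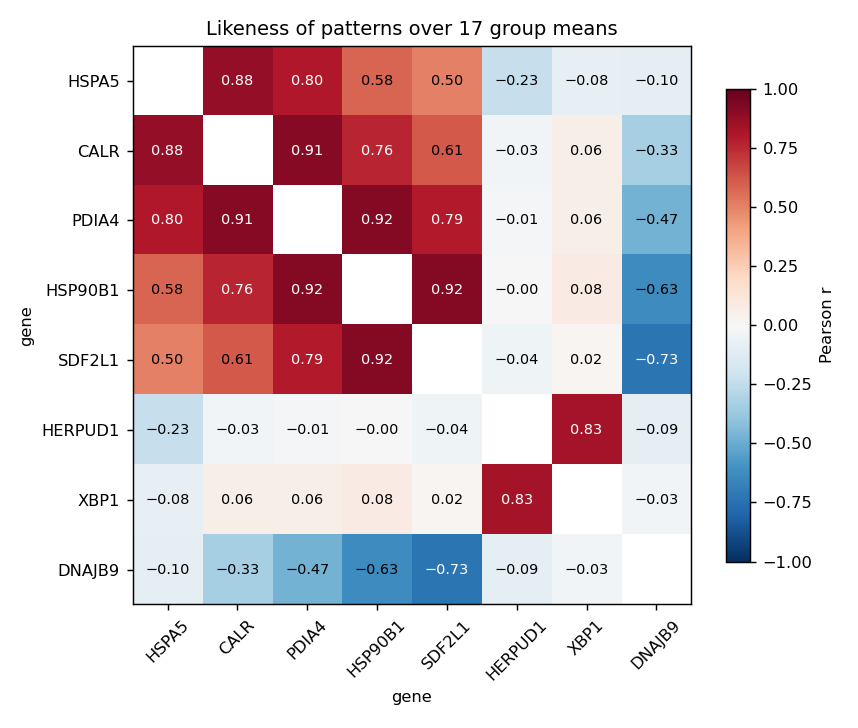
Pearson r between the patterns of the 8 genes (both axes) over 17 group means of log2 CPM, on a colour scale from -1 (blue) to 1 (red). HSPA5, CALR, PDIA4, HSP90B1 and SDF2L1 have r of 0.50 to 0.92 to each other, the lower of which many other genes reach. XBP1 and HERPUD1 have r of 0.83, and DNAJB9 is negative to all others.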

How the data were processed

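Total RNA was sequenced with a stranded, ribosome-depleted library kit per the labels' protocols. STAR, HTSeq and the builds hg19 and GRCh37 are named in the submitters' processing notes, with no versions. The authors deposited log2 RPKM per gene in 3 parts of 1 table: 15 DMSO and 80 nM libraries, 24 duplex libraries and 12 dose libraries. Low values stepped in whole reads, and 100% of deposited log2 values gave whole reads to within 2.72e-08 of a read. A second table, labelled as raw counts, holds whole numbers in 81 columns whose names could not be tied to samples. It was not used, and the recovered reads were not checked against it.

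From these reads, log2 CPM with a prior count of 2 and trimmed-mean scaling were fitted with limma 3.58.1 (R 4.3.3, statmod 1.5.0), with an intensity trend and robust variances. Genes needed, in at least 3 libraries, the CPM that 10 reads give in a library of median size, and at least 15 reads in all. In all, 7 models gave 22 comparisons, the p-values being adjusted by Benjamini-Hochberg over all genes of a comparison and called at 0.05. The fit was tested on simulated reads with known changes. These had the same dispersion for all genes, no pairing of replicates and no batch between parts, so they do not check the fit for those features. RPKM levels use the same scaling and the length in the deposited values. Read totals of 7897060 to 15662385 limit precision most for SDF2L1.

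The dose series was fitted against DMSO across separately processed parts. Replicate numbers paired the samples within the dose series only (18 pairs, correlations of deviations 0.20 to 0.71, no label names a shared day); its blocked values stand beside the dose trend. The members and lists were chosen with earlier results of these data known. Named beside the 8 genes were ERN1, EIF2AK3, ATF6 and DDIT3, up to 3 genes with the smallest adjusted p of each other list, the genes of the labels and the 5 genes most like HSPA5; ATF6B was added after its values were seen. Alternatives were median-of-ratios and total-read scaling, no filter, a prior count of 0.5, precision weights, the replicate block, the deposited log2 RPKM within 1 part, and each library left out. The likeness without 2 groups was added after seeing the data.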

Additional observations from a re-analysis of the deposited data

Results flagged for a closer look

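Differences between the lines in the same contrast passed for these genes (log2 scale, HMLE-TWIST1 minus HMLE, limma, adjusted over all genes). For knockdown against scramble at day 2 this was PDIA4, at -0.30 (SE 0.06, adjusted p = 0.00415). At day 4 it was CALR at 1.41 (SE 0.06, adjusted p = 2.29e-10), HSPA5 at 1.13 (SE 0.07, adjusted p = 2.01e-08), PDIA4 at 0.79 (SE 0.09, adjusted p = 4.7e-06), HSP90B1 at 0.47 (SE 0.13, adjusted p = 0.0231) and XBP1 at 0.39 (SE 0.11, adjusted p = 0.013). The duplex target SUV39H2 also differed at day 2, by -0.82 (SE 0.18, adjusted p = 0.00632).

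For day 4 against day 2 in scramble cells, CALR differed by -1.89 (SE 0.07, adjusted p = 3.66e-17), HSPA5 by -1.33 (SE 0.07, adjusted p = 3.81e-14), PDIA4 by -1.11 (SE 0.07, adjusted p = 2.07e-12), HSP90B1 by -0.83 (SE 0.16, adjusted p = 0.000336) and XBP1 by -0.60 (SE 0.10, adjusted p = 2.73e-05). The 2 sets of values share the scramble libraries of day 4 of both lines, so they are not independent of each other.

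For the day 4 against the day 2 schedule in DMSO cells, HSP90B1 differed by 0.63 (SE 0.09, adjusted p = 0.000159), DNAJB9 by -0.75 (SE 0.17, adjusted p = 0.00488), PDIA4 by 0.36 (SE 0.10, adjusted p = 0.0214), HERPUD1 by -0.59 (SE 0.19, adjusted p = 0.0345) and XBP1 by -0.43 (SE 0.14, adjusted p = 0.0426). The calls of 3 of these depend on single libraries. XBP1 lost its call without any 1 of 8 of the 12 libraries, all but HMLE replicate 2 of both days, HMLE-TWIST1 day 2 replicate 2 and HMLE-TWIST1 day 4 replicate 1 (adjusted p of 0.0666 to 0.112), and HERPUD1 without any 1 of 9, all but HMLE day 2 replicate 2, HMLE day 4 replicate 3 and HMLE-TWIST1 day 4 replicate 2 (adjusted p of 0.0524 to 0.103). XBP1 also lost it with total-read scaling, no filter, precision weights or the deposited log2 RPKM (adjusted p of 0.0528 to 0.291), and HERPUD1 with total-read scaling or the deposited log2 RPKM (adjusted p = 0.163 and 0.0695). PDIA4 lost it without HMLE day 4 replicate 1 or 3 (adjusted p = 0.0544 and 0.0517).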

How the results depend on the processing

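Median-of-ratios scaling and a prior count of 0.5 changed no call of the 8 genes in any of the 22 comparisons, and the highest and lowest group of all 8 stayed the same under median-of-ratios scaling. Total-read scaling moved the median of all genes by over 0.1 in 11 comparisons, most in HMLE-TWIST1 against HMLE scramble cells at day 4 (0.38 against 0.03). There it turned XBP1 to 0.17 (adjusted p = 0.0605) and PDIA4 to 0.25 (adjusted p = 0.00312), which are -0.21 and -0.13 relative to the shifted median; the scaling itself moves all genes of a library alike. It moved the share of higher calls among all genes called by over 10 percentage points in 14 comparisons. With total reads, against the trimmed mean, this share was 72.4%, 74.0%, 72.8% and 68.7%, against 50.1%, 51.9%, 52.3% and 51.2%, at 100, 150, 200 and 500 nM, and 65.3%, against 52.9%, after the washout. It was 60.7%, against 47.7%, and 60.2%, against 50.1%, for knockdown in HMLE-TWIST1 cells at days 2 and 4. Between the lines it was 63.0%, against 50.0%, on the day 4 schedule of DMSO and 65.4%, against 50.5%, with scramble at day 4. Between the scramble days it was 59.9%, against 46.8%, in HMLE-TWIST1 cells, 31.3%, against 51.2%, in HMLE cells and 72.9%, against 48.2%, for their difference. Between the DMSO schedules it was 30.8%, against 57.3%, in HMLE cells and 74.6%, against 41.5%, for the line difference. The number of members called was 2 in place of 1 with total reads for the line difference of knockdown at day 2. It was 3 in place of 5 for the line difference between DMSO schedules, with total reads and with the deposited log2 RPKM. It was 0 in place of 1 between the DMSO schedules of HMLE-TWIST1 cells with the deposited log2 RPKM, where 1 gene of all passed in place of 62, 102 with precision weights and 162 with the replicate block. The causes were not tested.

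The replicate block raised the members called in the dose trend to 3, against 1 without it, and all genes called to 6641, against 2959. Elsewhere, where numbers do not pair the samples (lowest correlation of a pair -0.17), it added SDF2L1 to HMLE-TWIST1 against HMLE in DMSO at day 2 (adjusted p = 0.0484) and XBP1 on the day 4 schedule (adjusted p = 0.0498), lost HSP90B1 in the line difference of knockdown at day 4 (adjusted p = 0.0543), and changed no other call of the 8. Leaving out each library in turn gave 3 to 5 members called for HMLE-TWIST1 against HMLE in DMSO at day 2 (5 with all), 0 to 2 for the dose trend (1), 1 to 3 for knockdown in HMLE-TWIST1 cells at day 2 (2), 1 to 2 for its line difference (1), 0 to 1 between the DMSO schedules of HMLE-TWIST1 cells (1) and 2 to 5 for the line difference between schedules (5). In all, 20 of 106 called results lost their call without at least 1 library and 9 gained one. Low read numbers limit SDF2L1 most, with 23 to 134 reads a library.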
